A study of Mus musculus with 6 samples.

Results

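Neural crest specifier genes were followed in tailbuds of mouse embryos at embryonic day 9.5 by sequencing of polyadenylated RNA. The set holds 9 named transcription factor genes (Sox8, Sox10, Foxd3, Tfap2a, Tfap2b, Snai2, Ets1, Pax3 and Pax7) of the 37310 gene identifiers listed, and all 9 passed the filter on low counts. The members were picked by gene name, with earlier results of these data known, so the choice was not blind to Sox8. The study set 3 libraries of embryos homozygous for Danforth's short tail (Sd/Sd) against 3 libraries of wild-type embryos (WT/WT, here WT), all on the outbred CD-1 background. Sd is a spontaneous insertion near the gene of the pancreatic and neural factor Ptf1a, and homozygotes lack much of the tail and lower spine. Tissue was cut just before the last somite. Some libraries pooled 2 tailbuds; the sources used here do not say which. Depth ran from 41788978 to 62296689 counts per library in Sd/Sd and from 42352598 to 52767718 in WT. Ptf1a had 848, 864 and 959 counts in the 3 Sd/Sd libraries, against 5, 2 and 1 count in the 3 WT libraries. Each library thus matched its label as Sd or WT. No heterozygous library was measured, so these counts do not test homozygosity. The tailbud marker T (Brachyury) was present in every library, at between 77.1 and 203 CPM (each count divided by its library's effective size in units of 1000000 counts) in Sd/Sd and between 144 and 184 CPM in WT.

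The neural crest is a population of cells that forms at the border between neural plate and surface ectoderm, leaves the dorsal neural tube and gives rise to peripheral neurons, glia, pigment cells and part of the head skeleton. Border genes such as Pax3, Pax7, Tfap2a and Tfap2b act first. The specifiers Foxd3, Snai2, Ets1, Sox8 and Sox10 then mark the cells as crest, before or while they become motile. Most of these genes also act elsewhere in the tailbud region. Pax3 and Pax7 are used in the dermomyotome of somites and in the dorsal neural tube, Ets1 in endothelium, Snai2 in mesenchyme and Tfap2a in surface ectoderm. In whole tailbuds, fewer cells of a type and less RNA per cell cannot be told apart.

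Sox8 encodes a factor of the SoxE family, and its close relatives Sox9 and Sox10 share the DNA-binding HMG box with it. The longest stretch of coding sequence that Sox8 and Sox10 have in common is 26 bases, that of Sox8 and Sox9 is 23 bases, and that of Sox9 and Sox10 is 44 bases (GENCODE M21 transcripts). These stretches are exact matches only, and mixing of reads between the 3 genes was not measured. The sources used here give no read length.
Sox8 and Sox10: gccttcatggtgtgggcacaggcggc
Sox8 and Sox9: gtgcagcacaagaaagaccaccc
Sox9 and Sox10: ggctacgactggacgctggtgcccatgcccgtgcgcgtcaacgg
Tfap2a and Tfap2b shared at most 29 bases, and Pax3 and Pax7 at most 26 bases.

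The 250 bases before the start of Sox8, Foxd3 and Tfap2b are shown because Sox8 was the single member whose groups did not overlap (3.26% of all genes did the same, higher in Sd/Sd), while Foxd3 and Tfap2b followed differences between libraries (RefSeq, GRCm38.p6; 5 of 9 members matched, in 6 windows). The counts themselves were made on mm9, so these coordinates belong to the sequences alone. Capitals mark CANNTG, the broad E-box class of basic helix-loop-helix factors. The marked sites read CACGTG in Sox8 and Foxd3 and CATTTG in Tfap2b, and binding of any factor to them was not tested.
Sox8, chr17:25570687-25570936, minus strand: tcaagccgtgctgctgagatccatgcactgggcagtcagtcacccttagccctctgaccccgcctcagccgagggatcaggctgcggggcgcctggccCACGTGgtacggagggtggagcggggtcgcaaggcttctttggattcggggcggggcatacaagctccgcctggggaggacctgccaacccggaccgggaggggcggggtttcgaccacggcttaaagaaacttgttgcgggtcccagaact
Foxd3, chr4:99656049-99656298, plus strand: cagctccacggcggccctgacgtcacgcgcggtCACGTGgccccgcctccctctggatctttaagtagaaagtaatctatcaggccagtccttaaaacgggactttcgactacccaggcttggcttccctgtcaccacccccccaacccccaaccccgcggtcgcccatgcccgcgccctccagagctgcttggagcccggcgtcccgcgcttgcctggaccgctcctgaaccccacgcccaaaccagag
Tfap2b, chr1:19211804-19212053, plus strand: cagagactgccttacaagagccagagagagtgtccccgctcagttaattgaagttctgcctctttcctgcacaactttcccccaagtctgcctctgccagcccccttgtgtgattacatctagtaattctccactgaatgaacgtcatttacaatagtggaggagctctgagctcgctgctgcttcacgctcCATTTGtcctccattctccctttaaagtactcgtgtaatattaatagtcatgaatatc
CANNTG was in 3 of the 6 windows, beside 66.2% of 32851 RefSeq windows of the same length, and it was added to the search after these sequences were seen. The match began 152 bases before the start in Sox8, 217 in Foxd3 and 58 in Tfap2b, and both Tfap2a windows and that of Pax7 held 0. The narrower E-boxes CAGCTG and CACCTG, both contained in CANNTG, were in none of the 6 windows, against 13% and 17.2% of all windows. The RBPJ core TGGGAA was in 1 of the 6, a Tfap2a window, where it began 13 bases before the start, and 21.6% of all windows hold it. The AP-2 motif GCCNNNGGC and the SOX core AACAAT were in none of the 6, against 13.7% and 9.42% of all windows. All searches covered both strands.

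Sox8 (ENSMUSG00000024176.4, chromosome 17) stood higher in every Sd/Sd library than in any WT library. It measured 7.01, 9.74 and 6.43 CPM in Sd/Sd replicates 1 to 3, against 3.32, 4.98 and 3.51 CPM in WT replicates 1 to 3. The lowest Sd/Sd value lay above the highest WT value, and the coefficient of variation was 22.9% within Sd/Sd and 23.1% within WT. The group levels were 7.73 ± 1.77 CPM in Sd/Sd and 3.93 ± 0.908 CPM in WT (SD, n = 3 each), a 1.96-fold higher level in Sd/Sd. The log2 fold change was 0.97 (SE 0.23, 95% interval 0.45 to 1.50). Sox8 did not pass edgeR's quasi-likelihood test (adjusted p = 0.840), in which it held rank 42 of 15471 genes. DESeq2 called it (adjusted p = 0.0298), and 0.224% of the 15166 genes with an adjusted p passed in that test. The other 12 alternatives gave Sox8 adjusted p-values between 0.135 (with the replicate block) and 1.00. An exact permutation test of the 6 values gave p = 0.1, the smallest that 3 against 3 libraries allow. With any 1 library left out the log2 fold change of Sox8 stayed between 0.77 and 1.18.

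Of the genes near Sox8 on chromosome 17, the 5 given here did not pass the test. On one side Sstr5 and Cacna1h had log2 fold changes of -0.55 and -0.09. On the other side 2810468N07Rik, Lmf1 and Gng13 had 0.24, 0.07 and -0.34 (edgeR adjusted p = 1.00 for each of these 5). 2810468N07Rik overlaps Sox8 on the opposite strand in GENCODE M21. Whether counting used the strand is unknown, so reads in the overlap could belong to either gene. It had 166, 354 and 174 counts in Sd/Sd replicates 1 to 3, against 169, 237 and 149 in WT, while Sox8 had 289, 610 and 315 counts in Sd/Sd, against 175, 263 and 148 in WT.

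Among the 3 SoxE genes, Sox8 alone separated the groups. Sox10 (ENSMUSG00000033006.8), which maintains crest cells and their glial and pigment descendants, measured 0.995, 6.56 and 0.0204 CPM in Sd/Sd replicates 1 to 3, against 1.35, 0.360 and 0.213 CPM in WT. Its highest and its lowest value were both Sd/Sd libraries, and the WT values lay between them. Sd/Sd replicate 3 held 1 Sox10 count (95% exact Poisson interval 0.0253 to 5.57), and WT replicate 3 held 9 (4.12 to 17.1), and these intervals overlap. Sox9, a SoxE gene of crest, cartilage precursors and notochord, measured 14.0, 26.5 and 5.47 CPM in Sd/Sd, against 19.7, 12.3 and 12.0 CPM in WT. Per kilobase of exons, Sox8 made up 37.7%, 26.7% and 60.8% of the summed SoxE level in Sd/Sd and 17.0%, 34.1% and 27.5% in WT. Those shares overlapped between the groups. The log2 fold change was 1.98 for Sox10 (SE 1.66, 95% interval -2.32 to 6.28, edgeR adjusted p = 1.00) and 0.07 for Sox9 (SE 0.60, adjusted p = 1.00). Without Sd/Sd replicate 2 that of Sox10 was -0.38, with the replicate block 0.97 and with limma-voom 0.40.

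**Figure D1:**
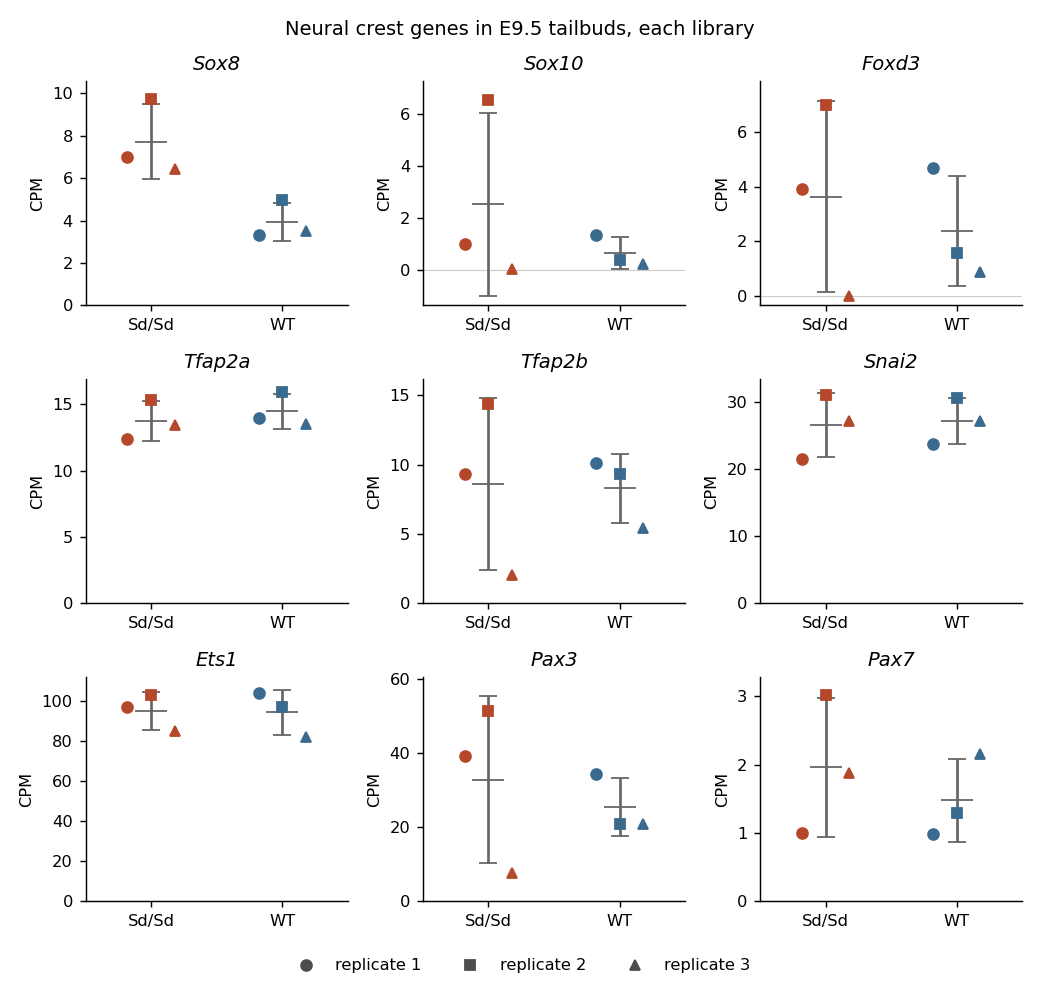
CPM of the 9 neural crest genes in each library (linear axes with a panel for each gene), with Sd/Sd libraries left of WT libraries; horizontal bars and whiskers give the mean ± SD of 3 libraries and symbols give the replicate number. Sox8 separates the groups, while Sox10, Foxd3, Tfap2b and Pax3 have their lowest value in Sd/Sd replicate 3 and their highest in Sd/Sd replicate 2.

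Foxd3 (ENSMUSG00000067261.3), a forkhead repressor and one of the earliest crest specifiers, ran over the libraries in the same order as Sox10. It measured 3.91, 6.98 and 0.0204 CPM in Sd/Sd replicates 1 to 3, against 4.68, 1.57 and 0.900 CPM in WT. Sd/Sd replicate 3 held 1 count (95% exact Poisson interval 0.0253 to 5.57), against 38 (26.9 to 52.2) in WT replicate 3, the next lowest library. The genotypes overlapped fully (log2 fold change 0.61, SE 1.48, 95% interval -3.26 to 4.47, edgeR adjusted p = 1.00). The sign of the Foxd3 difference turned without Sd/Sd replicate 2 (-0.30), with limma-voom (-0.96) and with the replicate number as a block (-0.07).

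Tfap2b (ENSMUSG00000025927.6), an AP-2 factor of crest, dorsal neural tube and nephric tissue, measured 9.32, 14.4 and 2.08 CPM in Sd/Sd replicates 1 to 3, against 10.1, 9.35 and 5.45 CPM in WT. Sd/Sd replicate 3 was again the lowest library and Sd/Sd replicate 2 the highest. The log2 fold change was 0.05 (SE 0.70, 95% interval -1.74 to 1.84, edgeR adjusted p = 1.00). Leaving out Sd/Sd replicate 2 gave -0.55 for Tfap2b, leaving out Sd/Sd replicate 3 gave 0.51, and the replicate block gave -0.25. Its relative Tfap2a (ENSMUSG00000021359.8), an AP-2 factor of the neural plate border and of surface ectoderm, measured 12.4, 15.3 and 13.5 CPM in Sd/Sd, against 14.0, 15.9 and 13.5 CPM in WT. No library stood apart in Tfap2a. Its log2 fold change was -0.07 (SE 0.13), and the 95% interval of -0.37 to 0.22 bounds the difference in either direction (edgeR adjusted p = 1.00).

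Pax3 and Pax7, paired-box factors of the neural plate border, dorsal neural tube and dermomyotome, differed from each other in which libraries were low. Pax3 (ENSMUSG00000004872.9) measured 39.2, 51.4 and 7.75 CPM in Sd/Sd replicates 1 to 3, against 34.5, 20.9 and 20.8 CPM in WT. In Pax3, Sd/Sd replicates 1 and 2 lay above all WT libraries and Sd/Sd replicate 3 below all of them. Pax7 (ENSMUSG00000028736.6) measured 0.995, 3.02 and 1.88 CPM in Sd/Sd, against 0.986, 1.29 and 2.16 CPM in WT. For Pax7, Sd/Sd replicate 3 lay inside the WT range. The log2 fold change was 0.37 for Pax3 (SE 0.74, 95% interval -1.60 to 2.33) and 0.43 for Pax7 (SE 0.44, 95% interval -0.58 to 1.43), with an edgeR adjusted p of 1.00 for each. Without Sd/Sd replicate 2 the values were -0.12 for Pax3 and -0.03 for Pax7, and without Sd/Sd replicate 3 Pax3 stood at 0.83.

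Snai2 and Ets1 were the members with the most transcript per exon length, and both were more even across libraries than most other members. Snai2 (ENSMUSG00000022676.6), the Slug repressor of cell adhesion genes in crest and mesenchyme, measured 21.5, 31.0 and 27.2 CPM in Sd/Sd replicates 1 to 3, against 23.8, 30.6 and 27.1 CPM in WT. Ets1 (ENSMUSG00000032035.7), which acts in crest cells leaving the neural tube and in endothelium, measured 97.1, 103 and 85.1 CPM in Sd/Sd, against 104, 97.0 and 82.4 CPM in WT. In both genes the groups covered nearly the same range. The log2 fold change was -0.03 for Snai2 (SE 0.15, 95% interval -0.36 to 0.30) and 0.01 for Ets1 (SE 0.10, 95% interval -0.23 to 0.25), with an edgeR adjusted p of 1.00 for each.

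Over the whole set, 0 of 9 members passed edgeR's test, where 0.0582% of 15471 genes did; 1 member, Sox8, had an unadjusted p under 0.05, as did 2.9% of all genes. DESeq2 called 1 member, Sox8, and limma-voom 0. Groups did not overlap in 1 of 9 members, higher in Sd/Sd, beside 3.26% of all genes in that direction, and in 0 of 9 lower, beside 4.42%. A share of 1 in 9 rests on a single gene. The median log2 fold change of the members was 0.37, with 7 positive and 2 negative values, against -0.00034 for all genes tested. That median is the value of Pax3, whose sign turned without Sd/Sd replicate 2 and which was 0.07 with the replicate block and 0.04 with limma-voom.

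**Figure D2:**
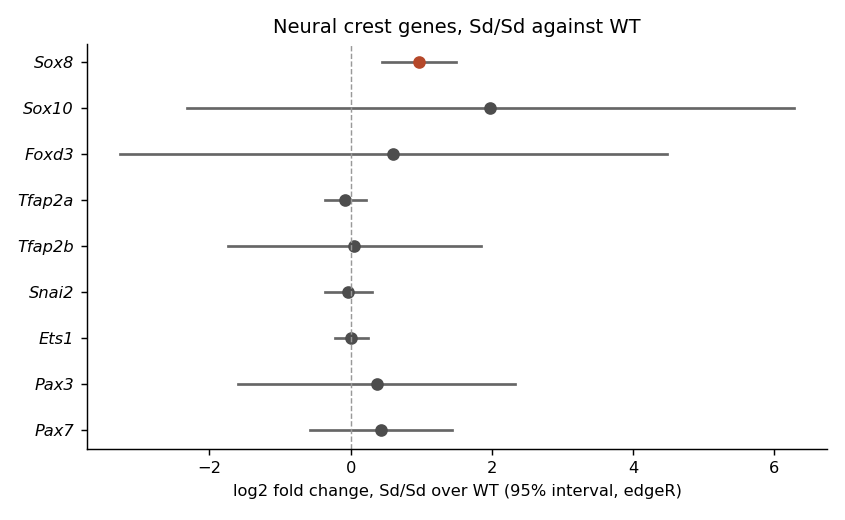
Log2 fold change of each member, Sd/Sd over WT (x axis), with the 95% interval of the edgeR fit as a horizontal line; the coloured point marks Sox8, whose groups did not overlap. The interval lies above 0 for Sox8 (0.45 to 1.50), is narrow around 0 for Tfap2a, Snai2 and Ets1, and is widest for Sox10 and Foxd3.

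Levels of different genes were compared per kilobase of merged exons, a scale that depends on the annotation used (GENCODE M21). In WT the order was Snai2 at 13.4 ± 1.68, Ets1 at 11.2 ± 1.32, Pax3 at 4.11 ± 1.27, Tfap2a at 2.95 ± 0.262, Tfap2b at 1.31 ± 0.394, Sox8 at 1.26 ± 0.291, Foxd3 at 1.03 ± 0.869, Pax7 at 0.252 ± 0.104 and Sox10 at 0.210 ± 0.202 CPM per kilobase (SD, n = 3). The WT ranges of Snai2 and Ets1 overlapped, as did those of Tfap2b, Sox8 and Foxd3, those of Pax7 and Sox10, and those of Foxd3 and Sox10. Pax3 and Tfap2a were separated from each other and from both neighbours. In Sd/Sd, Sox8 stood at 2.48 ± 0.568 CPM per kilobase, above the mean of Tfap2b at 1.36 ± 0.975, and its range of 2.06 to 3.12 overlapped that of Tfap2a, 2.53 to 3.13. In WT the range of Sox8, 1.06 to 1.60, lay below that of Tfap2a, 2.76 to 3.25.

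**Figure D3:**
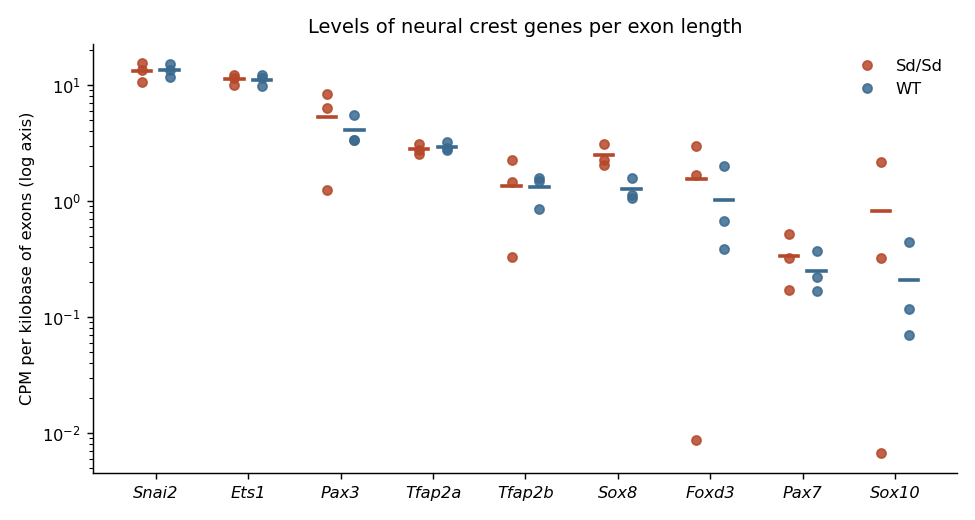
CPM per kilobase of exons (log axis) of the 9 genes in the order of their WT means, with Sd/Sd libraries left of WT libraries; points are libraries and short bars are means of 3. Snai2 and Ets1 are near 11 to 13 CPM per kilobase, and Foxd3 and Sox10 are lowest in Sd/Sd replicate 3, at 1 count each; for Sox10 the counting interval there overlaps that of WT replicate 3.

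The members differed in how even they were over libraries of the same genotype. Sd/Sd replicate 3 was the lowest of all libraries in 4 of 9 members (Sox10, Foxd3, Tfap2b and Pax3), beside 24.5% of all tested genes. Sd/Sd replicate 2 was the highest in 7 of 9, all but Tfap2a and Ets1, beside 20.3% of all tested genes. Both held for the same 4 members, beside 8.23% of all tested genes. On the log2 CPM scale (prior count 2) the SD within Sd/Sd was 3.41 for Sox10, 3.75 for Foxd3, 1.45 for Tfap2b and 1.47 for Pax3, against a median of 0.17 over all genes. Within WT these SDs were 1.27, 1.19, 0.48 and 0.42, against a median of 0.12. Sox10 and Foxd3 had 1 count each in Sd/Sd replicate 3, so the size of their Sd/Sd SDs depends on that prior count. For Tfap2a, Snai2 and Ets1 the SD lay between 0.14 and 0.27 in Sd/Sd and between 0.13 and 0.18 in WT. Sox8 had SDs of 0.32 in Sd/Sd and 0.31 in WT, and Pax7 had 0.78 in Sd/Sd and 0.56 in WT.

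Markers of somites and neural tube moved over the libraries with Sox10, Foxd3, Tfap2b and Pax3, and their part in these differences was not tested. The 12 somite and dermomyotome genes outside the set summed to 514, 561 and 93.6 CPM in Sd/Sd replicates 1 to 3 and to 421, 299 and 328 CPM in WT, and all 12 were lowest in Sd/Sd replicate 3. The 5 tested neural tube genes summed, with those under the filter, to 142, 170 and 65.3 CPM in Sd/Sd and to 150, 115 and 118 CPM in WT, with all 5 lowest in Sd/Sd replicate 3. Of 8 tested roof plate and dorsal neural genes outside the set, 5 were lowest there. With those under the filter, that list summed to 223, 227 and 230 CPM in Sd/Sd replicates 1 to 3. In WT it summed to 214, 198 and 221 CPM, so its sum was highest in Sd/Sd replicate 3. Wnt1, the dorsal midline ligand, was chosen after its values were seen and measured 2.69, 6.84 and 0.0204 CPM in Sd/Sd, against 2.71, 1.00 and 0.497 CPM in WT. Wnt3a and Msx1 of the same list, also picked here by their values, were highest in Sd/Sd replicate 3. Wnt3a measured 24.8, 18.7 and 36.1 CPM in Sd/Sd, against 21.0, 22.3 and 26.9 CPM in WT. Msx1 measured 101, 101 and 130 CPM in Sd/Sd, against 94.4, 86.6 and 116 CPM in WT. Tailbud progenitor and presomitic genes ran otherwise: their 10 members summed to 711, 426 and 872 CPM in Sd/Sd replicates 1 to 3 and to 629, 611 and 805 CPM in WT, lowest where Sox10 and Foxd3 were highest. Markers of other tissues that use members were steadier, with 11 endothelial genes at 477 to 645 CPM in Sd/Sd and 557 to 638 CPM in WT, and 10 surface ectoderm genes at 474 to 696 CPM and 518 to 695 CPM. Atoh1, a marker of dorsal interneurons, was near 0, at most 0.0160 CPM in Sd/Sd and 0.0190 CPM in WT.

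**Figure D4:**
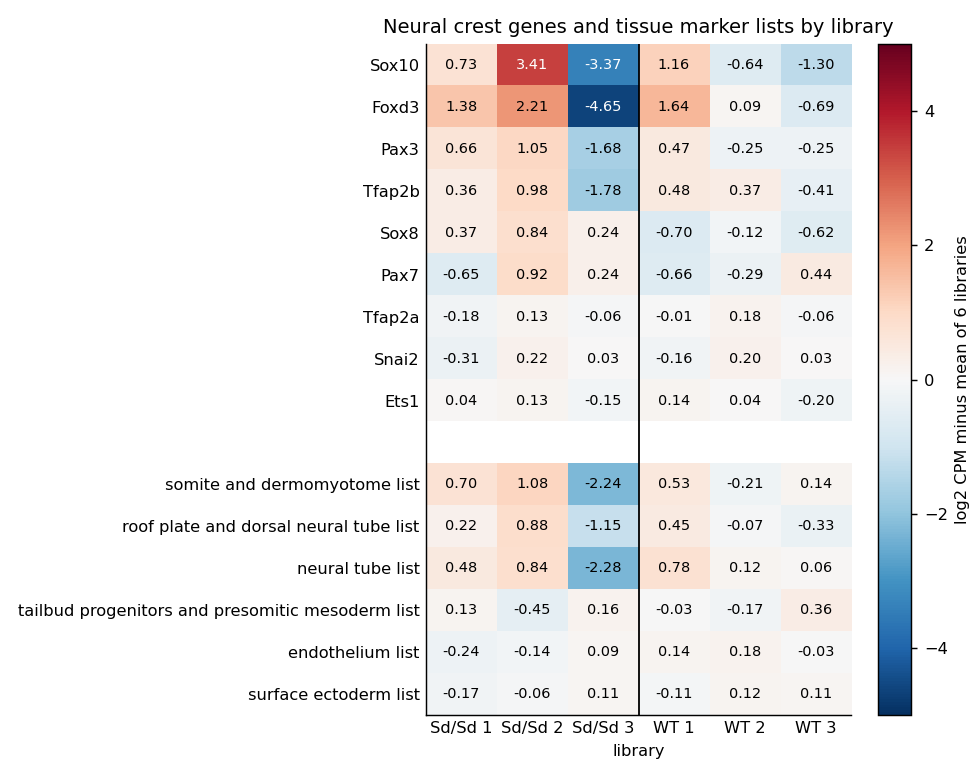
Log2 CPM of each member minus its mean over the 6 libraries, and the mean of that value over marker lists without the members (rows), for Sd/Sd libraries left of the line and WT libraries right of it; red is above and blue below the mean. Sox10, Foxd3, Pax3 and Tfap2b are lowest in Sd/Sd replicate 3 together with the somite, roof plate and neural tube lists on this log scale. The summed CPM of the roof plate list is instead highest in that library, at 230 CPM. Sox8 is above its mean in all 3 Sd/Sd libraries.

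The order of libraries seen in Sox10 (Sd/Sd replicate 2, WT 1, Sd/Sd 1, WT 2, WT 3, Sd/Sd 3, from high to low) was shared exactly by Foxd3 and by 0.666% of all tested genes. In the fixed lists it was shared by 6 more genes, Sox9, Zic1, Wnt1, Twist1, Pax6 and Wt1. Sox8 did not follow it: its lowest Sd/Sd library lay above the highest WT library, and WT replicate 1, the second highest in Sox10, was the lowest in Sox8. The 5 genes of at least 1 CPM whose log2 CPM over the 6 libraries was most like that of Sox8, among 12834, were Dhodh, Yars, Slc25a15, ENSMUSG00000063757.3 and Prpf40b (Pearson's r 0.960 to 0.979, a description over 6 libraries that share 2 genotypes). Their log2 fold changes were 0.10, 0.07, 0.12, 0.48 and 0.14 in that order, all smaller than the 0.97 of Sox8.

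The rest of the crest programme had 0 genes past edgeR's threshold in either direction, as had every marker list. Of 20 border and other specifier genes 1 had an unadjusted p under 0.05, beside 2.9% of all genes: Id3, which encodes an inhibitor of basic helix-loop-helix factors. Id3 measured 146, 161 and 135 CPM in Sd/Sd, against 134, 119 and 124 CPM in WT, without overlap, as did 3.26% of all genes in that direction (log2 fold change 0.23, SE 0.08, edgeR adjusted p = 1.00). Next by p were Dlx5, a border homeobox gene (-0.25, SE 0.18), and Id2 (0.09, SE 0.07). Their median log2 fold change was 0.02. Of 20 tested genes of migrating crest and its derivatives 3 had an unadjusted p under 0.05, again beside 2.9% of all genes, and in 2 of the 20 the groups did not overlap. Ret, a receptor gene of enteric crest and nephric duct, had the smallest p of that list and measured 43.0, 39.6 and 32.8 CPM in Sd/Sd, against 49.2, 52.1 and 49.6 CPM in WT. Its groups did not overlap, lower in Sd/Sd, as in 4.42% of all genes (log2 fold change -0.39, SE 0.10, edgeR adjusted p = 1.00). Ngfr, the low-affinity neurotrophin receptor gene that marks migrating crest, measured 62.7, 52.8 and 47.3 CPM in Sd/Sd, against 43.1, 40.7 and 45.6 CPM in WT. Its groups did not overlap, higher in Sd/Sd, as in 3.26% of all genes. Its log2 fold change was 0.33 (SE 0.11), and it too had an edgeR adjusted p of 1.00. The log2 fold change was -0.45 (SE 0.19) for the chemokine receptor gene Cxcr4, also with an edgeR adjusted p of 1.00. That list's median was -0.12, with 15 of 20 values negative.

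In the lists of other tissues the genes with the smallest p were, for roof plate, Bmp7 (log2 fold change -0.15), Msx1 (0.16) and Zic1 (1.89, SE 1.62); for neural tube, Sox2 (-0.17), Nkx6-1 (-0.42) and Pax6 (0.30); and for somites, Meox2 (0.89), Myf5 (0.71) and Eya1 (0.28). For tailbud progenitors they were Tbx6 (0.19), Wnt3a (0.18) and Fgf8 (-0.22), and for intermediate mesoderm Pax2 (-0.54), Gata3 (-0.32) and Lhx1 (-0.35). Genes of intermediate mesoderm, a tissue that also uses Tfap2b, had 6 of 7 negative values (median -0.32). Pax2 and Gata3 had an unadjusted edgeR p under 0.05, as had 2.9% of all genes (edgeR adjusted p = 0.944 and 1.00). Their groups did not overlap, lower in Sd/Sd, as in 4.42% of all genes. All but 1 of these 7 genes were lowest in Sd/Sd replicate 3. Endothelial genes had 11 of 11 negative values (median -0.18), led by Sox18 (-0.26), Emcn (-0.30) and Pecam1 (-0.29). The Sd/Sd libraries were not alike in this. The endothelial sum was 477, 495 and 645 CPM in Sd/Sd replicates 1 to 3, with replicate 3 above all WT libraries (557 to 638 CPM). Genes of surface ectoderm, a tissue that also uses Tfap2a, had 8 of 10 negative values (median -0.06), led by Epcam (-0.55, SE 0.10, edgeR adjusted p = 0.333; DESeq2 adjusted p = 0.00435), Grhl2 (-0.21) and Grhl3 (0.23). Epcam was the 1 list gene that DESeq2 called. In the endothelial and surface ectoderm lists the groups did not overlap in Sox18, Epcam and Grhl2, each lower in Sd/Sd, beside 4.42% of all genes.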

How the data were processed

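RNA of 3 Sd/Sd and 3 WT tailbud libraries was measured. Each deposited file lists unnormalized counts per gene of 1 library. Per the submitters' processing notes STAR 2.5.2b, bcl2fastq 2.17.1.14, CASAVA, DESeq2 and SAMtools were used, with build mm9. The sources used here give no read counter, strand setting or annotation release. GENCODE M21 (GRCm38) supplied exon lengths and gene names, for 32620 of 37310 identifiers. All 2269 identifiers on chromosome X are listed at 0.

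After filterByExpr (minimum count 10, minimum total 15), 15471 genes were tested with edgeR 4.0.16 in R 4.3.3 (TMM, robust glmQLFit, glmQLFTest, 2-sided, Benjamini-Hochberg over all genes, threshold 0.05). Levels are CPM with TMM factors, and log2 CPM values use a prior count of 2. The SE is the log2 fold change divided by the square root of F, and intervals use the 95% level. Depth sets a floor of 3 counts, or 0.0479 to 0.0728 CPM in Sd/Sd and 0.0568 to 0.0711 CPM in WT. Counting intervals cover counting error only. Alternatives were DESeq2 1.42.0 on the same genes, limma-voom (limma 3.58.1), RLE factors, no robust option, other filters, a replicate block and leaving out each library. The test scripts were tested on simulated data.

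Libraries of the same number deviated together (r = 0.194, 0.144 and 0.275 for numbers 1, 2 and 3), over the 0.1 taken as pairing, but WT replicate 1 and Sd replicate 2 also reached 0.182. The labels do not say what a number marks, so the unpaired design was kept. All pairs of libraries within a group differed by more than sampling noise. The labels name no litters, and p-values therefore cover only the spread among these 6 libraries. Named genes were all members, the tested paralogs, up to 3 genes of each list by smallest p, the 5 genes most like Sox8 and Ptf1a; T, Wnt1, Atoh1, Twist1, Wt1, Tfap2d, Tfap2e, Snai3 and the genes near Sox8 fall outside this rule and were chosen after their values were seen. The members and lists were chosen with earlier results of these data known. Some items are not reported here.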

Additional observations from a re-analysis of the deposited data

How the results depend on the processing

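The count of members past the threshold was 0 in edgeR and under every alternative but DESeq2, which gave 1 (Sox8, log2 fold change 0.98, adjusted p = 0.0298). Over the other 12 settings the adjusted p of Sox8 ran between 0.135 and 1.00. Sox10 was not tested under the stricter filter (1 CPM in 3 libraries). The count of list genes past the threshold was 0, and 1 with DESeq2 (Epcam). Over all genes edgeR called 9, DESeq2 34, limma-voom 3, edgeR without the robust option 3, no filter 14 and the replicate block 12; with a library left out the count ran between 2 and 6. With the replicate block the log2 fold change of Foxd3 was -0.073 and that of Tfap2b -0.25; with limma-voom they were -0.96 and -0.27. For Sox10 the block gave 0.97 and limma-voom 0.40, against 1.98 in edgeR, and for Pax3 they gave 0.068 and 0.040, against 0.37. With a library left out the log2 fold change ran between 0.77 and 1.18 for Sox8, -0.38 and 3.13 for Sox10, -0.30 and 1.56 for Foxd3, -0.16 and 0.00053 for Tfap2a, -0.55 and 0.51 for Tfap2b, -0.16 and 0.10 for Snai2, -0.080 and 0.091 for Ets1, -0.12 and 0.83 for Pax3, and -0.028 and 0.80 for Pax7. The cause of these turns was not tested. The replicate block changed no call among the members. Sox10 and Foxd3 had 1 count each in Sd/Sd replicate 3, under the floor of 3 counts. The counting interval there overlapped that of WT replicate 3 for Sox10 but not for Foxd3.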

Other observations

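Relatives of the members outside the neural crest set also differed in how even they were. Pax1 and Foxd2, factors of sclerotome and paraxial mesoderm, were uneven between libraries of a genotype. Pax1 measured 4.85, 19.0 and 0 CPM in Sd/Sd replicates 1 to 3, against 3.53, 0 and 2.89 CPM in WT; a count of 0 allows up to 0.0612 CPM in Sd/Sd replicate 3 and 0.0568 CPM in WT replicate 2. Foxd2 measured 6.77, 8.61 and 0.265 CPM in Sd/Sd, against 4.91, 1.10 and 3.43 CPM in WT. Pax9 ran at 5.14, 10.0 and 2.71 CPM in Sd/Sd and 7.77, 5.71 and 5.71 CPM in WT, and Foxd1 at 24.3, 21.1 and 7.65 CPM in Sd/Sd and 27.4, 20.5 and 22.1 CPM in WT. Sd/Sd replicate 3 was the lowest library in 5 of the 8 tested relatives: Foxd1, Foxd2, Pax9, Sox9 and Tfap2c.

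Snai1, Ets2 and Tfap2c were more even over the libraries, as Snai2, Ets1 and Tfap2a were. Snai1, the Snail repressor active in presomitic mesoderm, measured 88.0, 53.4 and 69.7 CPM in Sd/Sd, against 76.3, 62.6 and 69.6 CPM in WT. Ets2 measured 206, 145 and 209 CPM in Sd/Sd, against 208, 188 and 209 CPM in WT, and Tfap2c 7.28, 7.15 and 5.55 CPM in Sd/Sd, against 6.86, 6.74 and 8.27 CPM in WT. With Sox9, 8 of 11 relatives were tested and 0 passed edgeR's threshold, with 0 at an unadjusted p under 0.05 and 0 by DESeq2 (median log2 fold change -0.04). Tfap2d was at 0 in every library, while Tfap2e and Snai3 lay under the filter.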
